A study of Homo sapiens with 40 samples.

Results

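The histone mark H3K27ac was compared between senescent and non-senescent EndoC-βH3 cells, a beta-like line from human fetal pancreas that had been immortalized with SV40 large T antigen and telomerase. All 51489 peaks of the authors' deposited H3K27ac comparison were taken, out of 133343 regions in the tables and lists of the study, and they rest on 6 of its 40 libraries. The 3 senescent libraries came from cells treated with 4-hydroxytamoxifen for 3 weeks, which activates the CreER recombinase the cells carry and excises the immortalizing genes, and the 3 non-senescent libraries came from control cells labelled with the same WT genotype and carrying the same recombinase and transgenes. All 6 libraries are of this single line. A positive log2 fold change means more H3K27ac in senescent cells. Gained and lost peaks are those past a 1.5-fold change in either direction whose adjusted p-value (the authors' DESeq2 Wald test) lies below 0.05. Values of single libraries are not analysed here, and whether the 3 libraries of a state came from separate cultures is not stated, so the p-values measure only the spread between these samples.

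H3K27ac is laid down by the acetyltransferases CBP and p300 on nucleosomes next to active promoters and enhancers, and distal elements that carry it are usually taken to be in use. In the pancreatic beta cell it covers the genes of hormone production and secretion, together with enhancers bound by PDX1, NKX2-2 and NEUROD1. As background, SV40 large T antigen binds p53 and the retinoblastoma protein, and senescence is a lasting arrest in which p53 targets such as CDKN1A are in use and the genes of replication and mitosis are shut. At promoters of the mitotic genes, repression in resting cells is known to act through the CHR element (TTTGAA) next to CCAAT boxes, and at replication genes through E2F sites (TTTNGCGC).

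Promoter stretches of the cell-cycle genes are shown because their lists held the highest shares of lost promoters, and the short p53-type stretches because they lie in gained peaks. They were read from hg38, 5′ to 3′ on the strand of the gene for the first 5 and on the plus strand for the others. Capitals mark TTTGAA and CCAAT for TOP2A, MKI67 and CDK1, TTTNGCGC for MCM6 and CDT1, each on either strand, and the p53 element for the rest. The p53 element was defined as 20 bases, a pair of 10-base motifs with no spacer, with the core C and G of each exact and at most 2 other mismatches. The last 3 lie in the gained promoter peaks of CDKN1A, PTCHD4 and AEN, and the 140 bases before them lie at the start of MIR34AHG, the non-coding host of miR-34a.
TOP2A promoter, chr17:40417897-40418096, minus strand: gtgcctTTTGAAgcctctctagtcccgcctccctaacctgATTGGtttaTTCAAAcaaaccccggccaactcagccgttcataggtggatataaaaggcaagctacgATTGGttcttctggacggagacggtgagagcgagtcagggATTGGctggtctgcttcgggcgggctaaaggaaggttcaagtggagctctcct
MKI67 promoter, chr10:128126424-128126533, minus strand: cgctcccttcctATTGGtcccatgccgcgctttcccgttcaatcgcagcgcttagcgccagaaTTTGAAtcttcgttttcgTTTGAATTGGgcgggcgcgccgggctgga
CDK1 promoter, chr10:60778161-60778270, plus strand: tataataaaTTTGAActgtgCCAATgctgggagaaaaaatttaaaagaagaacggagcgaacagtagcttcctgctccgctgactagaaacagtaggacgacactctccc
MCM6 promoter, chr2:135876494-135876603, minus strand: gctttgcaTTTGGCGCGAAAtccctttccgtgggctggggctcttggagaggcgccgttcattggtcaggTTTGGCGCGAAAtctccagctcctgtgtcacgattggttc
CDT1 promoter, chr16:88803539-88803638, plus strand: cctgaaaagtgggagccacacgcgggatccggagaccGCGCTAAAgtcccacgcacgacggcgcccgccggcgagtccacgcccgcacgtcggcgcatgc
MIR34AHG start, chr1:9182084-9182223, plus strand: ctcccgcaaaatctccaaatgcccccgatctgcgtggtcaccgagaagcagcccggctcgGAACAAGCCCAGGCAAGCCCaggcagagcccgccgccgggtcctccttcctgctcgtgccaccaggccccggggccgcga
CDKN1A promoter peak, chr6:36676444-36676473, plus strand: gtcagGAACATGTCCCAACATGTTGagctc
PTCHD4 promoter peak, chr6:48111193-48111222, plus strand: tcactGGGCAAGTCTGGGCAAGCCTcccat
AEN promoter peak, chr15:88621301-88621330, plus strand: gagccGGGCTTGCCCGGGCATGTGGgagct

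Stretches near the centres of changed distal peaks are shown because 2 short words differed in frequency between lost and gained distal peaks. They were read from the plus strand of hg38. Capitals mark CAGATGG, an E-box of the kind that NEUROD1 and related factors bind, in the lost peaks of SDK1, ALOX12B and WNK2, and TGCTGA, the core of the site that MAF proteins bind, in the gained peaks of LHX4 and LMO2, each on either strand. The genes named are the nearest protein-coding ones.
SDK1 distal peak, chr7:3272986-3273238: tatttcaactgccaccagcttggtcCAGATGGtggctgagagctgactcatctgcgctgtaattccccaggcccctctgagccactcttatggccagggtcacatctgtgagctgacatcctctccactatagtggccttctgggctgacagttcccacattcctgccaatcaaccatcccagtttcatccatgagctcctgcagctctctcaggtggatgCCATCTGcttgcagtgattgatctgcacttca
ALOX12B distal peak, chr17:8059909-8059965: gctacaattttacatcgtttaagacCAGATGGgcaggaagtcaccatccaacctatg
WNK2 distal peak, chr9:93299594-93299650: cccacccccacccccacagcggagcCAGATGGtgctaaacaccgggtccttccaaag
LHX4 distal peak, chr1:180266895-180267189: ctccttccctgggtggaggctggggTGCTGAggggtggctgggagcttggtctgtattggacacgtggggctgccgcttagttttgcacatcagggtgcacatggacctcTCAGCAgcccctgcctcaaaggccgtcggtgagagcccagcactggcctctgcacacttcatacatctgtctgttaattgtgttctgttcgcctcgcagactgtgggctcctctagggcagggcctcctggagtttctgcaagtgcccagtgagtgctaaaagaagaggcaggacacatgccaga
LMO2 distal peak, chr11:33934717-33934810: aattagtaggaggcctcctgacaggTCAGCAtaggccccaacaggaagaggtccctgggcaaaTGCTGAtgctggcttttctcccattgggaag

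Of the 51489 peaks, 11643 were called (22.6%), 4876 gained (9.47%) and 6767 lost (13.1%). The median gained peak rose 1.89-fold and the median lost peak was 1.92-fold lower, and only 93 gained and 127 lost peaks passed 4-fold. Precision followed the read counts. When 4 groups of equal size were formed by mean count, from the lowest to the highest the median standard error of the log2 fold change was 0.444, 0.255, 0.148 and 0.0865, and the share of peaks called was 13.7%, 33.3%, 30.4% and 13.1%, so a small change was detectable only at deep peaks. The authors' mean counts summed to 19239499 over all peaks. The libraries are bulk chromatin, so fewer cells with the mark and less of it per cell cannot be told apart, and the scaling sets the typical peak near 0, so a shift of the whole mark cannot be seen.

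The labelled cell type was checked at promoter peaks, which lie within 2 kb of a start site of a protein-coding transcript. All 15 beta-cell markers examined had one (among them INS, PDX1, NKX6-1, NKX2-2, MAFA, ISL1, NEUROD1, PAX6, IAPP, ABCC8, KCNJ11, SLC30A8, PCSK1 and G6PC2). Of the alpha-cell markers, GCG had none, and none of those with a peak was called, IRX2 and TTR among them at log2 fold changes of 0.00 and 0.07. Both delta-cell markers were lost, SST at -0.86 ± 0.286 (SE) and HHEX at -0.76 ± 0.119. Among acinar markers only CPA1 had a peak (0.19 ± 0.0687, not called), with none at PRSS1, CELA3A or PTF1A, and among duct markers only KRT19, which was lost (-0.74 ± 0.0781), with none at SOX9 or CFTR. COL1A1, COL3A1, PDGFRB and VIM of mesenchyme and PECAM1, VWF and KDR of endothelium had no promoter peak, nor did PTPRC and CD3E of leukocytes or ALB of liver, while CD68 (0.20 ± 0.0668, not called) and APOA1 (-0.69 ± 0.221, lost) had one. The part of SST, HHEX and KRT19 in other changes was not tested.

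Promoter gains with the smallest adjusted p lay at genes of varied function, and the 3 largest by fold (at a mean of at least 50 counts) lay at p53 targets. Of 13971 promoter peaks, 631 were gained (4.52%) and 1372 lost (9.82%). A peak of 12240 bp over a start site of CLASRP, a splicing regulator, had the smallest adjusted p of the gains (chr19:45061141-45073380). Whether this is the main start of CLASRP was not examined. Its log2 fold change was 1.67 ± 0.0714 (SE, adjusted p = 1.60e-117, DESeq2 Wald test). The peak also overlapped an exon of ZNF296 and an enhancer that the authors listed in both states. It was followed by an internal promoter of LMO2, a LIM-domain cofactor known from blood stem cells (chr11:33867630-33871465, 2.17 ± 0.105, adjusted p = 3.35e-91), and by CALY, a neuronal protein of endocytic vesicles (1.46 ± 0.0814). The others in this rank were TMOD1, which caps actin filaments (1.24), ZNF853 (1.29), PI4KB with ZNF687 (1.15), CDKN1A (2.50) and KLHDC8B (1.20). These 8 peaks differed in level, from 59.4 reads per kb at CDKN1A to 312.5 at KLHDC8B in the authors' mean. With the same limit, the largest promoter gains were at PHLDA3, an inhibitor of AKT signalling (2.91 ± 0.281, adjusted p = 2.80e-23), BBC3, which encodes the pro-apoptotic PUMA (2.64 ± 0.263), and PTCHD4, a patched-domain protein (2.58 ± 0.286). Known p53 targets, they had peaks of only 41.5 to 55.9 reads per kb in the authors' mean.

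Promoter losses were named at mitotic genes and at genes of secretion and signalling. The zinc-finger gene ZNF831 lost the most by adjusted p (chr20:59117792-59128010, -1.80 ± 0.0626, adjusted p = 4.96e-178, DESeq2 Wald test). The shared promoter of NUSAP1, a spindle protein, and OIP5, which loads centromeric histone, fell by 1.75 on the log2 scale (SE 0.0866, adjusted p = 1.80e-87). TOP2A, the topoisomerase of mitotic chromosomes, whose promoter is printed above, fell further (-2.22 ± 0.123, adjusted p = 6.08e-69). RAMP1, a partner of the receptor for calcitonin gene-related peptide (-2.06 ± 0.107), MEGF11 (-1.60), QSOX1, which forms disulfide bonds in secreted proteins (-1.42), the dipeptidase gene DPEP1 (-1.68) and an internal promoter of the transcription factor FOXP2 (-1.40) were also in this rank. At a mean of at least 50 counts, the largest losses were at NDUFA4L2, a mitochondrial protein induced in low oxygen (-2.89 ± 0.315, adjusted p = 1.91e-18), INHBE, a subunit of activin E (-2.56 ± 0.205), and PSAT1, an enzyme of serine synthesis (-2.56 ± 0.161, adjusted p = 2.37e-54).

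The 8 linked distal gains with the smallest adjusted p were all wider than the median peak of 1742 bp. Of 27144 distal peaks linked to the nearest start site within 100 kb, 3022 were gained (11.1%) and 3528 lost (13%). The intergenic peak 38347 bp from LMO2 led (chr11:33930424-33939487, 1.66 ± 0.0692, adjusted p = 2.40e-122, DESeq2 Wald test), and its centre holds the pair of TGCTGA words printed above. Next came peaks in DIS3L2, an RNA-degrading enzyme (1.55 ± 0.0729), FAIM2, an inhibitor of Fas-driven cell death (1.64 ± 0.0825), LHX4, a LIM-homeodomain factor (1.70 ± 0.0884), and IFT122 of the ciliary transport machinery (2.05 ± 0.109). CCDC85C (1.52), a peak in ARFGEF2 whose nearest start is that of CSE1L (2.14) and SS18L1, a subunit of neuronal chromatin remodellers (1.58), completed the rank. Unlinked gains near DHX35 (224467 bp away, 1.62) and NTMT2 (137540 bp, 1.65) had adjusted p-values (DESeq2 Wald test) within this range.

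The largest distal gain carried the name of H6PD, the nearest protein-coding gene 51853 bp away, but lay at the start of the non-coding RNAs MIR34AHG and LNCTAM34A. This peak (chr1:9181351-9182921) had a log2 fold change of 4.64 ± 0.486, or 24.9-fold (adjusted p = 6.55e-20, DESeq2 Wald test), on an authors' mean of only 52.4 counts. It holds the p53 element printed above, and the hairpin of miR-34a, a microRNA known to be induced by p53, lies 29.6 kb from it. The mature strand, from RefSeq (GRCh38.p14, chr1:9151735-9151756, minus strand), is printed with its seed, bases 2 to 8, in capitals.
hsa-miR-34a-5p: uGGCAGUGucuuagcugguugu

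Of distal peaks linked to a gene and averaging 50 counts or more, the next largest gains were 3.10 ± 0.308 at the start of the non-coding RNA NALT1 beside NOTCH1 (3820 bp from the NOTCH1 start, adjusted p = 6.08e-22, DESeq2 Wald test) and 2.90 ± 0.221 in an intron of NRG1, which encodes a growth factor for ERBB receptors (adjusted p = 3.86e-37). Between them lay an intergenic peak 996065 bp from the nearest start site, that of PRKX, and so not linked to a gene (chrX:4709715-4712351, 3.05 ± 0.227, adjusted p = 1.23e-38). The NRG1 peak also held a p53 element, within its central 500 bases. Start sites of non-coding RNAs did not gain as a group. Of 2861 distal peaks within 2 kb of one, 9.19% were gained and 15% lost, against 11.5% and 14.3% of the other distal peaks.

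Among distal losses, 1 peak stood out in certainty. The peak between ALOX12B and its neighbours (chr17:8053333-8066939, 13607 bp, outside protein-coding genes) had the smallest adjusted p of the whole table (-1.93 ± 0.0597, adjusted p = 7.46e-225, DESeq2 Wald test) and a level of 307.0 reads per kb. It lies within 2 kb of a start site of a long non-coding RNA that has no gene name. Peaks in PRKCH, a protein kinase C (-1.31 ± 0.0652), in MSI2, an RNA-binding protein of progenitor cells (-1.69 ± 0.0869), and in an intron of KCND3 linked to DDX20 (-2.10 ± 0.105) followed. The kinase gene WNK2 (-1.51), GTPBP4 (-1.49) and RASSF6 (-1.66) were also in this rank. Of unlinked peaks, 4 ranked with these, the first of them an intergenic one beyond TBC1D22A (chr22:47560725-47579070, -1.30 ± 0.0640, adjusted p = 1.80e-87). The largest falls in size, again at a mean of at least 50 counts, were near ASAP2, a regulator of ARF GTPases (-2.78 ± 0.172), near SDK1, a synaptic adhesion protein (-2.54 ± 0.245), and in DAAM1, a formin of the actin cytoskeleton (-2.48 ± 0.189).

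**Figure D1:**
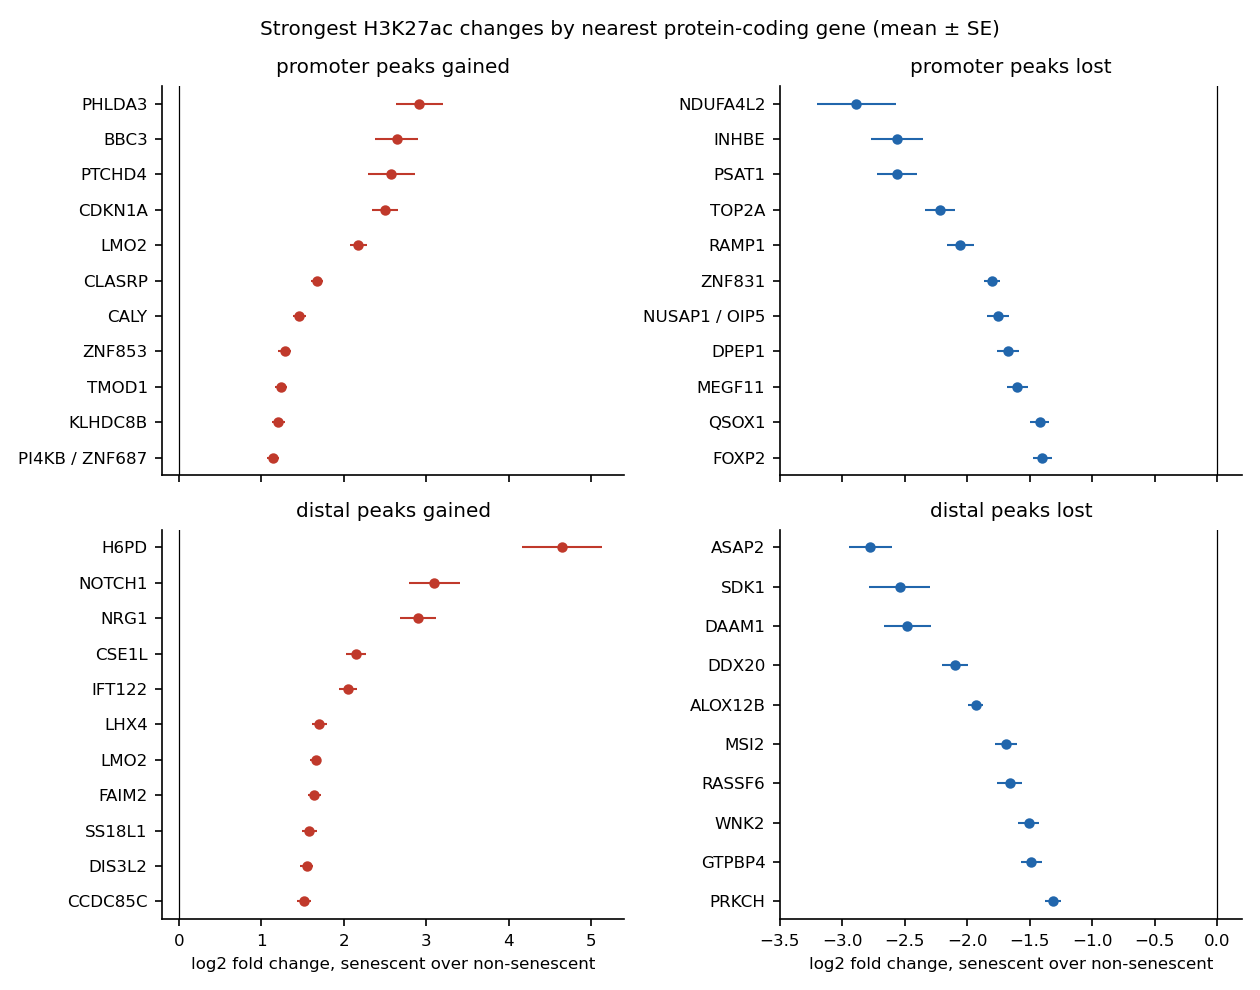
Log2 fold change of H3K27ac (x axis, senescent over non-senescent; bars are the deposited standard error) for the named peaks of each class, labelled by nearest protein-coding gene (y axis). The peak labelled H6PD, at 4.64, lies at the start of MIR34AHG and has a wide error, while LMO2 appears among both promoter and distal gains.

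Some genes held several changed peaks, and whether more than their numbers of peaks would give was not tested. Of 14642 genes with a linked peak, 5471 had at least 1 changed peak (37.4%). 2089 had gains alone, 2797 losses alone and 585 both, and 747 had 3 or more changed peaks, of which 429 (57.4%) were changed in 1 direction. Genes with more peaks have more chances of a change. The 204 genes with 3 or more gained peaks had a median of 9.5 linked peaks and the 347 with 3 or more lost peaks a median of 8.0, against 2.0 over all linked genes.

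The genes with the most gained peaks were long ones. PDE4D, a phosphodiesterase that breaks down cyclic AMP, had 14 of 51 linked peaks gained (median log2 fold change of those 0.80) and 3 lost. DIP2C had 14 of 48 gained and none lost (median 0.96), ASAP1, an ARF regulator, 11 of 30 (0.89), and FMN1, a formin, 10 of 25 with 1 lost (0.96). ABLIM1, an actin-binding protein, was the densest, with 9 of 13 peaks gained, 12 of 13 above 0 and a range of the gains from 0.60 to 1.70. TMEM132B, a membrane protein of neurons, had 8 of 21 gained and 1 lost (-0.75 ± 0.169) by nearest start site, and 12 of 25 gained and none lost when every peak within its body was counted.

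The genes with the most lost peaks had at most 1 gained peak each. MSI2 had 13 of 25 linked peaks lost and none gained (-0.61 to -1.83), with 22 of 25 below 0. SDK1 had 10 of 22 lost (to -2.54), the zinc-finger gene BNC2 10 of 18 with 1 gained, FOXP2 9 of 18, the actin regulator RFLNA 9 of 14 with 1 gained, and KCNMB2, a subunit of calcium-activated potassium channels, 9 of 20 with 1 gained. Counting by gene body instead put LRMDA (18 of 38 lost), KCND3 (15 of 16) and PTPRT (14 of 43, 1 gained) at the top. The 2 ways of counting named 142 genes in common among 204 and 236 with 3 or more gains (69.6% and 60.2%), and 188 among 347 and 286 with 3 or more losses (54.2% and 65.7%).

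At some genes every linked peak lay on 1 side of 0, called or not. This held for 264 of the 2397 genes with 5 or more linked peaks (11%), 129 higher and 135 lower. Among the higher ones, PLPPR5, a membrane protein of neurite outgrowth, had 11 peaks with 6 gained (median 0.75), CREBBP, the acetyltransferase CBP itself, 9 with 5 gained (0.75), EPAS1, an oxygen-sensing transcription factor, 9 with 4 gained (0.54), and the amino acid transporter gene SLC7A8 9 with 5 gained (0.67). Among the lower ones were NRP1, a receptor for semaphorins (14 peaks, 9 lost, median -0.94), GLI3, the mediator of Hedgehog signalling (11 peaks, 8 lost, -0.95), PCSK1 (11 peaks, 8 lost, -0.94) and KIAA1217 (10 peaks, 7 lost, -1.40).

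KCND3, which encodes the potassium channel Kv4.3, lost H3K27ac over nearly its whole body (chr1:111770662-111989668, 219.0 kb). Its promoter peak fell by 1.88 on the log2 scale (SE 0.140, adjusted p = 1.31e-38, DESeq2 Wald test), and 15 of the 16 peaks in the gene were lost, from -1.21 to -2.32. The exception was a peak of 18.8 mean counts at 0.17 ± 0.460, with called losses on both sides of it. Of the 16, only 4 were assigned to KCND3 by nearest start site.

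PCSK1, the convertase that makes the first cut in proinsulin, showed the same direction at its promoter and around it. The promoter was lost at -1.41 ± 0.0853 (adjusted p = 8.18e-59, DESeq2 Wald test), 7 of 10 distal peaks were lost, from -0.59 to -1.43, and the other 3 lay at -0.35, -0.58 and -0.94 without passing the threshold. LMO2 stood opposite, with 5 of 7 linked peaks gained. Its internal promoter rose by 2.17 on the log2 scale while the peak at its canonical start was at 0.48 ± 0.0734, below the fold limit, and 4 of the 5 distal peaks were gained at 1.62 to 2.29. At KNDC1, a signalling protein of neurons, the promoter (1.60 ± 0.108), both linked distal peaks (1.11 and 0.71) and a peak inside the gene linked to UTF1 (1.63) were all gained, and the 2 peaks of the neighbouring gene CALY were gained too (1.46 and 0.79).

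**Figure D2:**
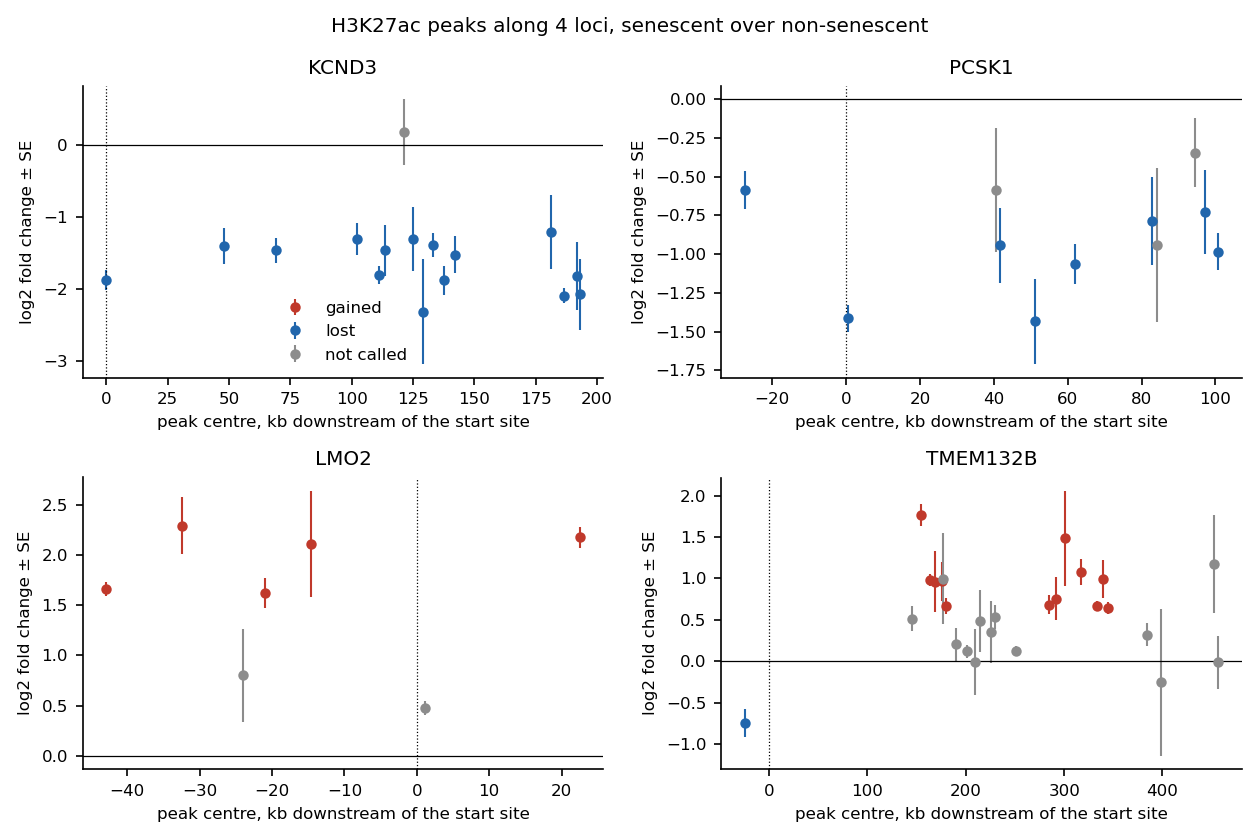
Log2 fold change of each peak (y axis, with the deposited standard error) against the distance of its centre from the gene's start site (x axis, kb) in the KCND3 body and among the peaks linked to, or within, PCSK1, LMO2 and TMEM132B. Blue points are lost, red points gained and grey points not called: 15 of 16 points are lost in KCND3 and 12 in the TMEM132B body are gained.

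Promoter and distal peaks of a gene mostly moved the same way when both were called. Each gene was represented by its main promoter peak, the one with the highest mean count, and 12781 genes had one, 405 of them gained (3.17%) and 1158 lost (9.06%). Of the 119 genes with a gained promoter and a changed distal peak, 72 (60.5%) had distal gains alone, 26 (21.8%) losses alone and 21 both. Of the 384 with a lost promoter, 288 (75%) had losses alone, 54 (14.1%) gains alone and 42 both. Most main promoter peaks were not called, with or without distal change. Of 3339 genes with a promoter peak and a changed distal peak, 2836 (84.9%) had a main promoter peak that was not called. Over all 12781 genes with one, only 1563 were called, so the 84.9% is no trait of genes with distal change.

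Seen from the distal peaks, 30% were lost and 5.92% gained where the promoter was lost, 21.0% were gained and 8.59% lost where it was gained, and 11.3% were gained and 10.4% lost where it was not called. At genes with no promoter peak, losses prevailed (19.8% against 11.3% gained). The share of promoter and distal pairs that agreed in direction was 85.3% at 2 to 10 kb, 80.5% at 10 to 30 kb and 78.1% at 30 to 100 kb. Gained promoters with several distal gains were those of EHMT1, a histone methyltransferase (0.90, 6 distal gains), PLPPR5 (0.67, 5), ROBO2, an axon guidance receptor (0.59, 4), and SLC7A8 (0.82, 3). Lost promoters with several distal losses were SDK1 (-0.74, 8), PCSK1 (7), FOXP2 (6), PRUNE2 (-0.77, 6), TACC2 (-0.69, 6), NRP1 (-0.75, 6), the anion transporter gene SLCO3A1 (-0.82, 5) and KL, which encodes Klotho (-1.07, 5).

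**Figure D3:**
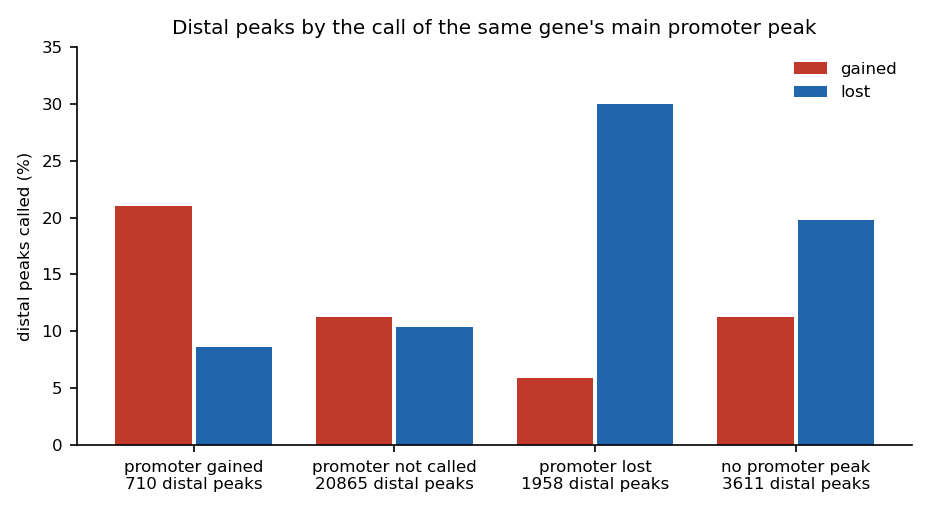
Share of linked distal peaks gained (red) and lost (blue), in percent of the distal peaks of each class (y axis from 0), by the call of the main promoter peak of the same gene (x axis, with the number of distal peaks). The lost share reaches 30% at genes with a lost promoter and the gained share 21.0% at genes with a gained one.

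Opposite pairs with a lost promoter included cell-cycle genes. NEK2, a centrosomal kinase of mitosis, lost its promoter (-1.19 ± 0.120, adjusted p = 1.49e-21, DESeq2 Wald test) while a peak 26340 bp away was gained (1.15 ± 0.189). CENPW, a kinetochore subunit, showed -1.07 ± 0.167 and 0.75 ± 0.123, and DMC1, a recombinase of meiosis, -1.02 ± 0.115 and 0.75 ± 0.0904, the second inside FAM227A. FLYWCH1 (-0.70 and 0.64) and WIPF1, an actin regulator (-0.84 and 1.17), followed in this direction.

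In the other direction, a wide promoter peak shared by DSCAML1 and FXYD2 (24507 bp) was gained at 0.94 ± 0.0622 while an intronic peak of DSCAML1, an adhesion protein of neurons, was lost at -0.84 ± 0.0761. NOSIP (0.73 and -0.69), ARRDC4, an arrestin-domain protein (0.65 and -0.82), GRHL3, an epithelial transcription factor (0.70 and -0.86), CFC1 (0.69 and -0.76) and RAB4A, a GTPase of recycling endosomes (0.69 and -0.62) followed. CFC1 has a near-identical copy in the genome, so its reads may be split.

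Neighbouring changed peaks mostly had the same direction. Of 2522 pairs of consecutive peaks at most 50 kb apart that were both called, 87.0% had the same direction (95% exact binomial interval 85.6 to 88.3, counting error only), against 51.3% that the numbers of gained and lost peaks alone would give. The share fell with the gap, from 96.1% under 3 kb through 90.7% at 3 to 10 kb and 80.7% at 10 to 50 kb to 64.4% at 100 to 1000 kb. Pairs under 3 kb were counted as the authors listed them. Of peaks next to a changed one within 50 kb, 31.1% were changed, against 22.6% of all peaks.

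Runs of 4 or more consecutive peaks changed in 1 direction, with neighbours at most 50 kb apart, numbered 31 for gains and 96 for losses. The gained runs held 133 peaks (2.73% of gained peaks) over a median span of 53.9 kb, and the lost runs 433 peaks (6.40%) over 54.95 kb. A promoter peak lay in 7 gained and 37 lost runs. The longest gained run was 7 peaks inside TMEM132B (chr12:125468707-125535360, 66.7 kb, log2 fold change 0.64 to 1.48), and a second run of 4 lay upstream of it in the same gene (0.96 to 1.77). Runs of 5 gained peaks covered AP3B1, a subunit of the adaptor that sorts cargo to lysosomes and granules (128.9 kb, 0.77 to 1.92), the stretch from KNDC1 to UTF1 and VENTX on chromosome 10 (119.9 kb, 0.68 to 1.63) and the 3′ end of TTC17 with the intergenic stretch beside it (66.8 kb, 0.60 to 1.07), where 1 of the 5 peaks lay over an exon of the gene.

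The longest lost run was 10 peaks over the 3′ part of KCND3 and the edge of DDX20 (96.6 kb, -0.89 to -2.32), and the uncalled peak described above parted it from a run of 6 that reached the KCND3 promoter (115.7 kb). RFLNA had a run of 8 (73.8 kb, -0.67 to -1.75), NRP1 of 7 (88.5 kb, -0.91 to -1.71) and SDK1 of 6 (60.7 kb, -0.65 to -2.54). The SDK1 run includes the lost peak with the pair of CAGATGG words printed above.

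**Figure D4:**
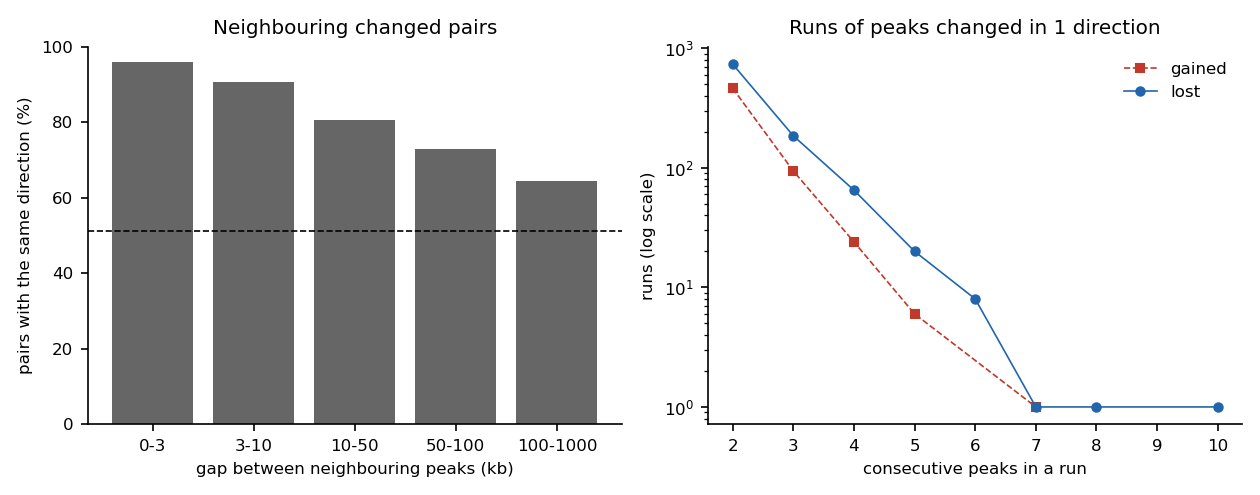
Left, share of neighbouring changed pairs that changed in the same direction (y axis, percent from 0) by the gap between them (x axis, kb), falling from 96.1% to 64.4%, with the 51.3% given by the counts alone as a dashed line. Right, number of runs (y axis, log scale) by the number of consecutive peaks in the run (x axis), for gained and lost peaks; lengths with no run are left out.

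CTCF, the protein that anchors chromatin loops, was compared at the changed H3K27ac peaks. The study's fold and p-value limits for CTCF were used, a 1.5-fold change with the adjusted p-value below 0.2. Its restriction to peaks with a CTCF motif was not applied, so the counts differ from those of the study. Of 39485 CTCF peaks with an adjusted p, 2870 passed (7.27%), with 2.99% gained and 4.28% lost. Among 702 CTCF peaks that overlapped a gained H3K27ac peak, 5.41% were gained and 1.99% lost. Among 1478 on lost H3K27ac peaks, 0.744% were gained and 7.31% lost. On uncalled H3K27ac peaks, 1.04% of 9896 CTCF peaks were gained and 3.42% lost, so the share of CTCF gains on lost peaks was close to that on uncalled ones. Within the lost runs, 12 CTCF peaks were lost and 1 gained of 136, and within the gained runs 3 were gained and 1 lost of 40.

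Promoters of replication and mitosis lost H3K27ac more often than promoters at large. Lists of 20 genes (25 for the interferon response) were compared by their main promoter peaks, beside the 3.17% gained and 9.06% lost and the median log2 fold change of 0.04 over all 12781 genes with one. Of the mitosis and kinetochore list, 17 of 20 were lost and none gained (median -1.25). After MKI67 (-2.29) and TOP2A came AURKB, a kinase of chromosome segregation (-1.73 ± 0.120), CENPF of the kinetochore (-1.77 ± 0.126) and CDK1, the kinase that drives mitosis (-1.44 ± 0.118), while AURKA (-0.36), NDC80 (-0.54) and TTK (-0.21) were not called. Of the DNA replication list, 12 of 20 were lost and none gained (median -0.84). RRM2, which makes deoxynucleotides, was lowest (-1.81 ± 0.153), followed by the licensing factors CDC6 (-1.50), CDT1 (-1.37) and MCM6 (-1.30), and MCM2 was at -0.93. PCNA, the sliding clamp, was above 0 at 0.40 ± 0.0698 and not called.

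Of 19 p53 target promoters, 8 were gained and 1 lost (median 0.53). Besides CDKN1A, PHLDA3 and BBC3, the gains were FAS, a death receptor (1.30 ± 0.481, adjusted p = 0.020, DESeq2 Wald test), the stress hormone gene GDF15 (1.04 ± 0.186), AEN, an apoptosis-enhancing nuclease (0.86 ± 0.119), GADD45A (0.65 ± 0.0896) and SESN1 (0.60 ± 0.0783). FDXR, a mitochondrial reductase also known as a p53 target, was lost (-0.81 ± 0.0923). MDM2, the feedback inhibitor of p53, was at 0.16 ± 0.0831 at its promoter, and its 1 distal peak was gained.

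The genes of beta-cell transcription factors had far more distal peaks than main promoter peaks (149 beside 19), and most of their called changes were distal. A gene has at most 1 main promoter peak, and other lists such as the channel genes (204 beside 19) had the same imbalance. Of 19 promoters of beta-cell transcription factors, none was gained and only SIX2, a factor that rises in mature human beta cells, was lost (-2.01 ± 0.261, adjusted p = 3.54e-13, DESeq2 Wald test). Of their 149 distal peaks 16 were gained and 8 lost, beside the 11.1% and 13% of all linked distal peaks given above. ISL1 had 3 of 5 distal peaks gained (0.79, 1.01 and 1.46) and a promoter at 0.50 ± 0.0495, under the fold limit, and ST18 had 5 of 22 gained and 1 lost. Of 20 hormone and granule promoters 2 were gained and 2 lost. Their median was 0.34, and 16 lay above 0 and 4 below. With no fold limit 13 were gained and 4 lost. At that setting the beta-cell transcription factor list had 3 gained and 5 lost, and the exocytosis and channel lists 4 gained and 5 lost each. The share over all promoters at that setting is not given here. Of their 103 distal peaks 8 were gained and 13 lost. IAPP, the amyloid peptide secreted with insulin (0.93 ± 0.147), and SCG5, a chaperone of the convertase PCSK2 (0.80 ± 0.0712), were gained at the promoter, whereas PCSK1 and VGF, a granule peptide precursor (-1.11 ± 0.203), were lost. The promoters of INS and IGF2 lie in 1 peak, which was at 0.34 ± 0.0588 and not called, while both distal peaks of IGF2 were gained.

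Among the exocytosis machinery, 1 of 18 promoters was lost, that of CADPS2, a priming factor of dense-core vesicles (-1.30 ± 0.192), and of 99 distal peaks 5 were gained and 12 lost. Of the channel genes only the calcium release channel RYR2 was called at the promoter (-1.09 ± 0.298, lost), and of 204 distal peaks 19 were gained and 14 lost, CACNA1D with 4 gained and 1 lost and KCNMA1 with 1 gained and 5 lost. Of the neuronal adhesion genes 2 of 15 were gained at the promoter, ROBO2 among them, and CNTNAP2 was lost (-0.62 ± 0.189). The 2 gains fell below the fold limit when the fold changes were centred on the peaks with the highest counts.

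Called changes of the signalling and progenitor lists were mostly losses, which also prevailed at large. Over all main promoter peaks 9.06% were lost and 3.17% gained, and over all linked distal peaks 13% and 11.1%. The Notch promoters, with 10% lost, were near that base. In the TGF-beta and BMP list, 4 of 13 promoters were lost, the inhibitor SMAD7 (-1.09 ± 0.125), the ligand genes INHBA (-1.10 ± 0.168) and BMP4 (-0.75 ± 0.255) and the effector SMAD3 (-0.78 ± 0.0946), and the receptor gene ACVR1C was gained (0.65 ± 0.0616). Of its 42 distal peaks 13 were lost and 3 gained. Of the Notch list 1 of 10 promoters was lost, HES6 (-0.83 ± 0.0657), and of 53 distal peaks 10 were lost and 3 gained. Of the progenitor list GATA6 (-1.45 ± 0.391) and HMGA1 (-0.76 ± 0.135) were lost among 12 promoters, and 16 of 62 distal peaks were lost with 3 gained, including all 3 of MEIS1 and 3 of 5 of GATA4. COL4A1 and COL4A2, the chains of basement membrane collagen, share 1 promoter peak, which was lost (-0.86 ± 0.274), so that 2 of 9 promoters of the matrix list were lost. Of its 57 distal peaks 12 were lost and 5 gained.

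In the list of AP-1 and immediate early genes, ATF3 (-1.59 ± 0.0950) and KLF4 (-0.59 ± 0.0658) were lost among 17 promoters, and of 44 distal peaks 9 were lost and 2 gained. Of 18 interferon-response promoters 2 were lost, IFIH1, a sensor of double-stranded RNA (-0.61 ± 0.111), and OAS3, an antiviral enzyme (-1.50 ± 0.224), and none was gained. Of 19 interferon-response distal peaks 3 were lost, beside 13% of all linked distal peaks. The lost promoter shares, 11.8% for AP-1 and 11.1% for interferon, were close to the 9.06% of all promoters. None of 20 promoters was called for cholesterol and fatty acid synthesis, or for cytosolic ribosomal proteins, with medians of 0.00 and -0.01. Under the centring above, the medians of the neuronal and the cholesterol lists turned from 0.04 to -0.02 and from 0.00 to -0.06.

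**Figure D5:**
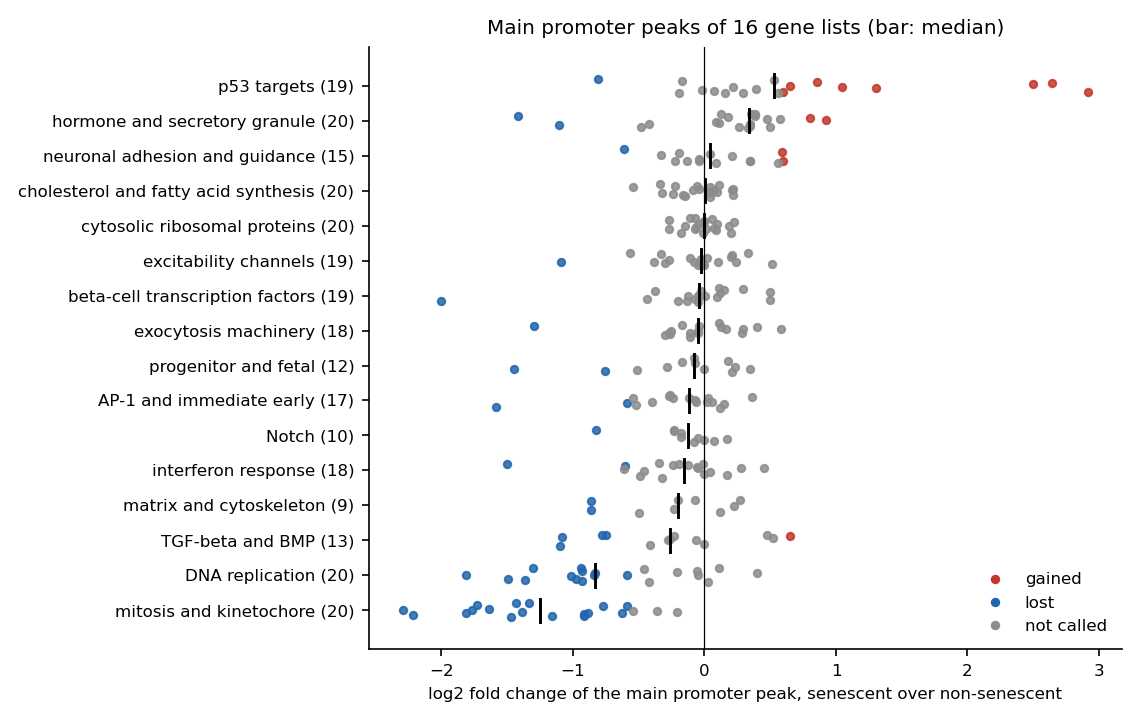
Log2 fold change of the main promoter peak (x axis, senescent over non-senescent) for each gene of 16 lists (y axis, with the number of genes that had a promoter peak; vertical jitter is arbitrary). Red points are gained, blue lost and grey not called, and the black bar is the list median, from -1.25 for mitosis to 0.53 for p53 targets.

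The 2 cell-cycle lists differed in the words their promoters held. In RefSeq windows from 250 bases before to 50 after the start (GRCh38.p14), found for 8962 of the 12781 genes, TTTGAA occurred in 12 of 17 mitosis promoters and in 0 of 16 replication promoters, and TTTNGCGC in 1 of 17 and 8 of 16. Over all genes, TTTGAA was in 17.5% of 703 lost promoters, 8.33% of 8041 not called and 5.05% of 218 gained, beside 15.4% of all 27305 RefSeq windows. Windows with both TTTGAA and CCAAT were 11.1% of lost, 3.42% of uncalled and 1.83% of gained promoters (6.08% of all RefSeq windows). For TTTNGCGC the shares were 5.83%, 3.11% and 2.29%, and 1.83% of all windows. CCAAT alone differed less, with 39.8%, 37.4% and 33.9%, and 35.7% of all. All were searched on both strands, and a match is a description of letters, not of a bound site.

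The p53 element was rare and most frequent among the largest gains. It occurred in 3 of 218 gained promoters (PTCHD4, AEN and ACTA2, 1.38%), in 0.211% of uncalled and 0.142% of lost ones, and in 0.271% of all RefSeq windows; the copy at CDKN1A printed above lies in the peak outside this window. In the central 500 bases of distal peaks, it was found in 7 of the 82 gained more than 4-fold (8.54%), 28 of the 1770 gained 2 to 4-fold (1.58%) and 11 of the 2393 gained less (0.46%), against 0.441% of uncalled and 0.352% of lost peaks, and 0.501% of all 37518. Besides MIR34AHG and NRG1, a gained distal peak in FMN1 held the element (1.98 ± 0.144). Others had as nearest gene CHL1 (84683 bp away, 2.39 ± 0.274) and IER5, an immediate early gene (45444 bp, 2.21 ± 0.223). A further one was 120382 bp from CTSV (2.66 ± 0.357), beyond the 100 kb linking limit, on a mean of only 46.3 counts. A peak 8484 bp from CDKN1A held one as well (1.90 ± 0.658).

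CAGATGG was in 22.7% of lost, 14.7% of uncalled and 11.3% of gained distal windows, 15.5% of all. With the windows split into 3 equal groups by GC content, the order was the same in each, with 17.8%, 11.4% and 7.93% in the lowest and 26.1%, 17.3% and 14.6% in the highest. Of the 565 windows with 2 or more copies, 29.6% were lost and 5.84% gained, against 13.1% and 11.9% of windows without it. TGCTGA ran the other way, in 44.7% of gained, 35.7% of uncalled and 34.8% of lost windows (36.6% of all), and of 3181 windows with 2 or more copies 16.7% were gained and 12.6% lost, against 9.87% and 14.8% of those without. The word TGTTTAC of FOXA and other forkhead factors was in 13.8% of lost, 11.3% of uncalled and 9.66% of gained windows, 11.4% of all, and the AP-1 word TGANTCA in 16.9%, 17.3% and 19.2%, 17.5% of all. TGANTCA and TGCTGA can overlap within a longer MAF site.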

How the data were processed

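H3K27ac ChIP-seq libraries, 3 senescent and 3 non-senescent by their titles, were examined. The authors used Trim Galore for trimming, Bowtie2 for alignment (hg38), Picard for duplicates, HOMER with the input libraries for peaks and DESeq2 on raw peak counts. Versions are not given in the sources used here. The authors' deposited signal is the mean of read counts divided by size factors, the deposited fold change and its standard error are log2 values, the deposited score is the Wald statistic, and the deposited p-value comes with the authors' Benjamini-Hochberg adjusted p-value. The CTCF table holds the same units. Enhancer and Rb lists hold positions alone and were not used for calls.

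A count test had been planned, but the tables hold no values per library, so no model was refitted, replicates could not be compared, and depth per library is unknown. The standard error of each fold change carries the spread between libraries as the authors' model estimated it. Calls required a 1.5-fold change and an adjusted p-value below 0.05 (0.2 for CTCF). Peaks within 2 kb of a start site of a protein-coding transcript (GENCODE 44; 693 readthrough or unnamed genes left out, 19332 kept) were promoter peaks, counted for each such gene, and the others were linked to the nearest start site within 100 kb. Runs allowed gaps of 50 kb. Peak starts were taken to count from 0 and are printed counting from 1. Columns of other series numbered 0.

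Named were, in each of 4 classes (distal peaks only where linked to a gene, a limit the rule had not stated), the 8 peaks with the smallest adjusted p (1 a gene) and the 3 largest with a mean count of at least 50, the 6 genes with most gained and most lost peaks, the 6 opposite pairs each way, the 4 longest runs each way, list members with the smallest adjusted p, and all markers. Others (KCND3, LMO2, PCSK1, KNDC1, CALY, ISL1, genes counted by body or with all peaks on 1 side, promoters with several distal changes of the same direction, non-coding RNAs, p53-element peaks) were chosen after their values were seen. Some genes that the rule names are not reported here. The peaks, gene lists and motifs were chosen with earlier results of these data known. Scripts were tested on simulated data (Python 3.11.15, pandas 2.3.3, numpy 2.4.6, scipy 1.17.1, matplotlib 3.10.9). Alternatives changed the thresholds, the scaling, the low-count filter, the linking distance, start sites, promoter width, merging and gap.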

Additional observations from a re-analysis of the deposited data

How the results depend on the processing

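Of 50 alternative values, 24 stayed within 1.5 times the reported count or inside the interval of the reported share, and 26 moved. With no fold limit 20193 peaks were called (9726 gained, 10467 lost), genes with both promoter and distal changes in the same direction numbered 1202 and in opposite directions 438, and runs 118 (gained) and 187 (lost). At a fold change above 2 there were 5000 peaks (2013 and 2987), 2756 genes with a changed peak, 32 and 94 genes with 3 or more gained or lost peaks, and 92.7% of neighbouring pairs agreed. With no linking limit 381 and 634 genes had 3 or more gained or lost peaks, and within 20 kb 67 and 89, with 45 opposite genes. Runs numbered 10 and 26 at a shorter gap, 56 and 150 with no gap limit, and 74 and 169 when uncalled peaks of the same sign were allowed, an alternative chosen after seeing the data. Pairs over 10 kb apart agreed at 80.7%. The moved counts follow from calling, linking or joining more or fewer peaks, and the cause of the moved shares was not tested. Centring on the peaks with the highest counts moved all fold changes by 0.0594 and the gained share of calls from 41.9% to 34.7%. Of 235 named called peaks, 213 kept their call at an adjusted p under 0.01 and 226 after centring. At a mean count of at least 50, 198 kept it, and at a fold change above 2, 130 did. No sign could turn, since only centring altered the fold changes, and by less than any called change. Across these alternatives the mitosis list had 11 to 19 lost promoters, the replication list 5 to 15 and the p53 list 5 to 13 gained ones.

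No paired analysis was possible because the tables hold no values per library, and leaving out single libraries was not run for the same reason. Nearest-gene links are not contacts, and shallow peaks resolve only large changes.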

Other observations

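Of promoters of amino acid and serine metabolism, about as many lost H3K27ac as were not called. After PSAT1 and INHBE had been seen among the largest losses, 24 genes of the amino acid response were listed, so the list is a description and the count is no independent evidence. Of the 23 with a promoter peak, 12 were lost (52.2%, beside 9.06% of all genes with one) and 0 gained, with 15 below 0 and a median log2 fold change of -0.67. Of the serine and one-carbon enzymes, those lost were PHGDH (-2.09 ± 0.140, adjusted p = 1.36e-47, DESeq2 Wald test in the deposited table), PSAT1, SHMT2 (-1.88 ± 0.143) and MTHFD2 (-0.84 ± 0.0905), while PSPH, of serine synthesis (0.09 ± 0.0797), and ALDH1L2, of folate metabolism (0.43 ± 0.0808), were above 0 and not called. The cystine transporter gene SLC7A11 (-1.35 ± 0.118), PCK2, which makes phosphoenolpyruvate in mitochondria (-0.87 ± 0.111), CHAC1, which degrades glutathione (-0.71 ± 0.0828), and the stress factor ATF3 were lost as well. ASNS, the asparagine synthetase (0.13 ± 0.0743), CTH (0.35 ± 0.0853), VLDLR (0.24 ± 0.0738), DDIT3 (-0.14 ± 0.0704) and TRIB3 (-0.38 ± 0.0524) were not called.

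Chromosome 19 was the exception to the excess of losses, with 9.44% of its 1494 peaks gained and 5.69% lost, and a median log2 fold change of 0.15 against 0.01 over all peaks. Single non-coding RNAs moved beyond MIR34AHG. The start of MIAT, a nuclear long non-coding RNA, was gained (1.74 ± 0.111), and so was PTPRJ-AS1 (1.83 ± 0.117), while LINC01950 (-1.94 ± 0.231) was lost.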
